A study of Mus musculus with 6 samples.

Results

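The 10 genes described here, Fkbp5, Tsc22d3, Zbtb16, Sgk1, Errfi1, Cdkn1a, Pdk4, Plin4, Sult1a1 and Mertk, are known targets of glucocorticoids, the steroid hormones that the adrenal gland releases in a daily rhythm and under stress. They were taken by name, with every probe whose gene name was one of these symbols or whose RefSeq transcript belonged to one of them. This gave 21 of the 150305 non-control probes of the array, 12 by gene name and 9 through the transcript alone. The scanner software called all 21 well above background on all 6 arrays.

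The arrays measured total RNA of prefrontal cortex from male mice of the outbred ICR stock at an age of 3 to 4 months. One group was wild type (3 samples) and the other lacked Nrf2 (3 samples), the transcription factor made from Nfe2l2 that drives antioxidant and detoxification genes. No sample carries a label for a treatment, a stressor or a hormone level. Which part of Nfe2l2 was deleted, and whether each sample came from its own animal, is not in the labels, so p-values reflect only how far these samples varied, and that variation may be technical.

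Corticosterone, the main glucocorticoid of mice, enters the cell and binds the glucocorticoid receptor, which a complex around the chaperone Hsp90 holds in the cytoplasm. The bound receptor moves to the nucleus, where it binds DNA as a pair on palindromic glucocorticoid response elements and raises the transcription of nearby genes. Several of these targets act back on the hormone's own signal or on metabolism, and in brain many of them respond in glia and vessel cells as well as in neurons.

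At none of the 10 genes did a difference between genotypes pass the test. Of their 21 probes, 0 passed an adjusted p of 0.05 in limma's test over all 105922 tested probes, where 0.00944% of probes passed. At an unadjusted p under 0.05, 2 member probes were called, both lower in the knockout, against 15.1% of all probes in either direction and 8.94% lower. The knockout and wild type arrays did not overlap at 2 of the 20 member probes measured on all arrays, against 21.6% of all probes in either direction and 10.4% with the knockout lower. Those 2 probes, 1 of Fkbp5 and 1 of Sult1a1, were the same ones. Log2 fold changes, given throughout as knockout minus wild type, were below 0 at 13 probes and above 0 at 8 (17 and 4 with slide as a block). The 95% interval of the difference lay within 2-fold in both directions at 17 probes and within 1.5-fold at 15. These bounds hold only for this fit over all arrays, which has no term for the slide. With slide as a block, Sgk1 probe A, for example, ran from −0.62 to 0.45 in place of −0.38 to 0.33. The interval of Mertk probe A ran from −0.88 to 2.44 when an outlier-flagged spot was kept.

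Signals are given as log2 of the processed signal minus log2 of the 75th percentile of that array, called the normalised log2 signal below. That percentile lay between 278 and 280.3 in wild type, against 245 to 269 in the knockout, and on each array 71.0 to 73.4% of probes were called well above background. The 3 wild type arrays and knockout 1 shared a scan date in the file headers, and knockouts 2 and 3 shared another. These scan groups are called slide 1 and slide 2 throughout, although no slide label was read. Nfe2l2 itself was lower in the knockout at all 3 of its coding probes, of which the least changed gave −4.08 on the log2 scale (SE 0.12, limma adjusted p = 6.13e-04). The summed signal of 6 endothelial markers was 63.9 to 70.9 times the array's 75th percentile in wild type and 54.6 to 60.3 in the knockout, and that of 6 meningeal fibroblast markers 35.5 to 52.1 and 28.2 to 35.1. That of 5 choroid plexus markers was 2.37 to 2.91 and 1.89 to 2.19, the sixth, Otx2, having no tested probe, and that of 5 red cell genes 625 to 811 and 839 to 991. Kcnj13, the brightest choroid plexus marker, weighed most in its sum, with a log2 fold change of −0.55. Of the 5 markers, 3 were below 0 and 2 above, the latter Ttr (0.22) and Folr1 (0.18). The endothelial sum rested mostly on its brightest marker, Ly6c1, which gave −0.36. Over the 6 endothelial markers the median log2 fold change was −0.018, with 4 below 0 and 2 above. The sums of 6 markers each for neurons, oligodendrocytes and microglia overlapped between genotypes, and those of astrocytes lay at 296 to 310 in wild type against 277 to 296. No marker gene passed the test, and the part of cell composition in the results below was not tested. In bulk tissue, fewer cells of a type and less RNA per cell cannot be told apart.

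**Figure D1:**
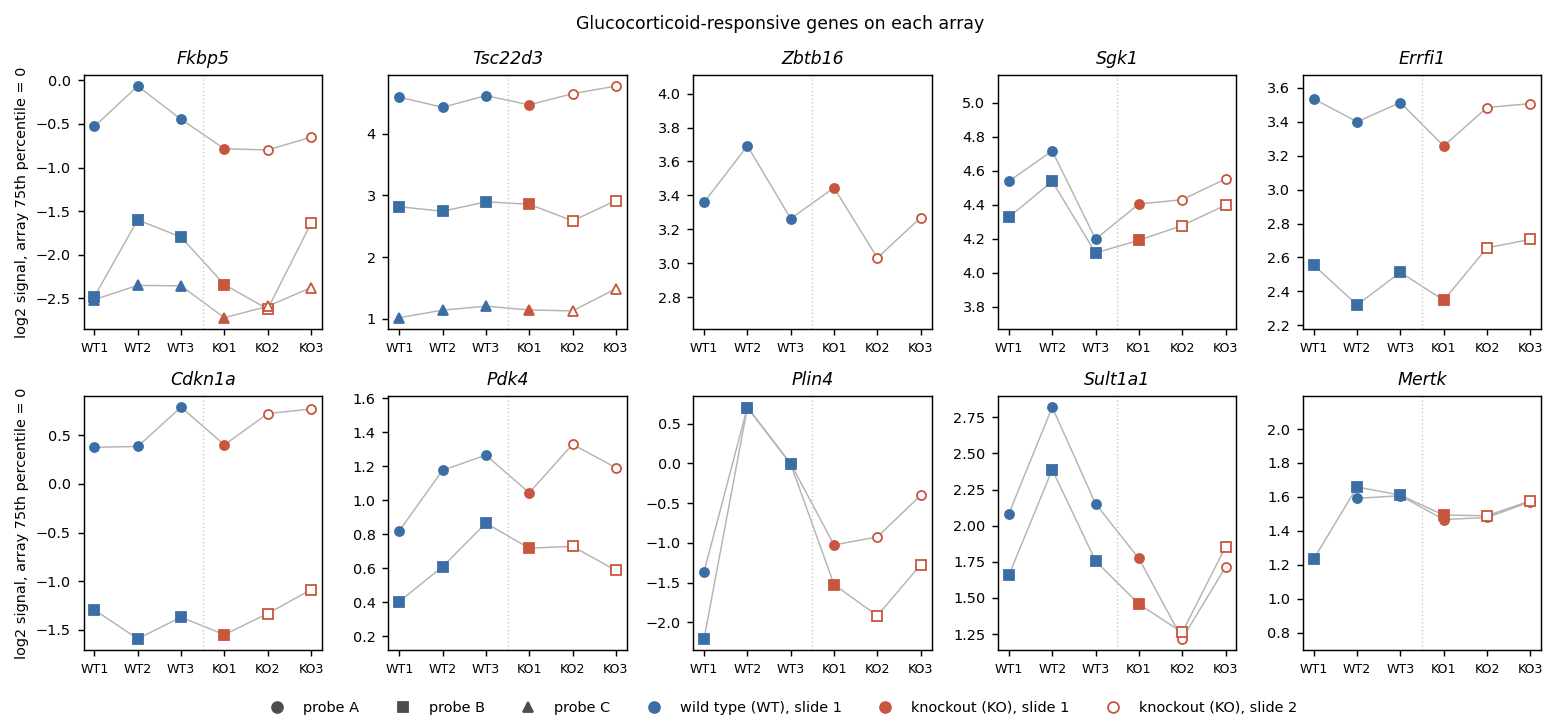
Normalised log2 signal (vertical axis, log2, with the array's 75th percentile at 0 and a separate scale per gene) of every probe of the 10 genes on each of the 6 arrays, wild type in blue and knockout in red, with open symbols for the 2 arrays on slide 2. Grey lines only join the values of one probe, and the outlier-flagged spot of Mertk probe A on wild type 1 is left out. The wild type 2 array stands highest at every probe of Sult1a1, Plin4, Zbtb16, Sgk1 and Fkbp5 and at Mertk probe B. Among the probes measured on all 6 arrays only Fkbp5 probe A and Sult1a1 probe A separate the genotypes.

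Fkbp5 encodes a co-chaperone that joins the Hsp90 complex and lowers the receptor's affinity for hormone, so that its induction forms a short negative feedback loop. Its probe A lies at position 351 of the transcript and at chr17:28574995-28575054 (build mm9, per the file headers). It measured −0.53, −0.066 and −0.45 in wild types 1, 2 and 3, and −0.78, −0.80 and −0.65 in knockouts 1, 2 and 3. All 3 knockout arrays lay below all 3 wild type arrays, and wild type 2 stood highest. The log2 fold change was −0.40 (SE 0.14, 95% interval −0.74 to −0.059), with a limma adjusted p of 0.314. Without wild type 2 it was −0.26.

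Probes B and C of Fkbp5 lie further along the transcript, at positions 2644 and 1929. Probe B measured −2.48, −1.60 and −1.80 on the wild type arrays and −2.34, −2.62 and −1.64 on the knockout arrays, and the groups overlapped, with knockout 3 among the highest arrays. Probe C measured −2.51, −2.35 and −2.36 in the wild type samples and −2.72, −2.59 and −2.38 in the knockout, again with knockout 3 inside the wild type range. Their log2 fold changes were −0.24 (SE 0.32) and −0.16 (SE 0.12), below 0 as at probe A, with limma adjusted p of 0.702 and 0.506. Leaving out single arrays moved them between −0.52 and −0.031 and between −0.25 and −0.077. With slide as a block, the log2 fold changes of the 3 probes were −0.44, −0.38 and −0.31, none past the threshold.

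Tsc22d3 encodes GILZ, a leucine zipper protein through which glucocorticoids dampen inflammatory transcription. Its brightest probe measured 4.59, 4.43 and 4.62 on the wild type arrays and 4.47, 4.65 and 4.77 on the knockout arrays. The groups overlapped, and the 6 arrays lay within a narrow band. The log2 fold change was 0.083 (SE 0.11, 95% interval −0.19 to 0.36, limma adjusted p = 0.713). The other probes of the gene gave −0.031 (SE 0.12) and 0.13 (SE 0.13), so their intervals also kept any difference within 1.5-fold. The direction was not settled: with slide as a block, the brightest probe gave −0.078 and the second 0.039.

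Zbtb16 encodes PLZF, a zinc finger repressor strongly induced by glucocorticoids in many tissues. Its only probe measured 3.36, 3.69 and 3.26 in the wild type samples and 3.45, 3.03 and 3.27 in the knockout. Wild type 2 was the highest array and knockout 2 the lowest, and the groups overlapped. The difference of −0.19 (SE 0.16, limma adjusted p = 0.543) became 0.0071 with slide as a block and −0.063 without wild type 2.

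Sgk1 encodes a serum- and glucocorticoid-regulated kinase that controls ion channels and transporters. Probe A measured 4.54, 4.72 and 4.20 on the wild type arrays and 4.40, 4.43 and 4.55 on the knockout arrays. The knockout arrays lay inside the wild type range, whose SD of 0.26 compared with 0.079 in the knockout. The log2 fold change was −0.023 (SE 0.15, 95% interval −0.38 to 0.33), and at probe B, which shares 56 of its 60 bases with probe A, −0.038 (SE 0.13). Limma adjusted p were 0.945 and 0.892.

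The Sgk1 promoter carries the textbook form of the receptor's binding sequence, and it is printed here because it shows the palindrome on which the receptor pair sits. Promoter sequences from RefSeq on GRCm38.p6, from 250 bases before to 50 after each start, were held for 18 starts of 9 of the genes. The full element, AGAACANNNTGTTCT on either strand, was present in 3 of 32851 promoters (0.00913%), and 1 of these 3 was an Sgk1 start. The stretch lies on the plus strand at chr10:21993693-21993722, with the element in capitals beginning 189 bases before the start:
Sgk1 promoter: atgcggaaAGAACAGAATGTTCTcggagat
The relaxed form GNACANNNTGTNC was found in 0.475% of promoters and, among the 18, only at this same place. The single arm AGAACA was found in 6233 of the 32851 promoters and in 5 of the 18, which belonged to Sgk1, Sult1a1 and Tsc22d3. The core of the antioxidant response element to which Nrf2 binds, TGACNNNGC, was found in 12.4% of promoters and in 1 of the 18, at Cdkn1a. A match describes the letters of these windows only, and receptor elements often lie far outside them.

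Errfi1, Cdkn1a and Pdk4 act on growth signals and fuel choice. Errfi1 encodes Mig6, an inhibitor of the EGF receptor, and its brighter probe measured 3.53, 3.40 and 3.51 in the wild type samples and 3.26, 3.48 and 3.51 in the knockout. Knockout 1 was the lowest array and the groups overlapped. This probe gave a log2 fold change of −0.067 (SE 0.10) and the other 0.11 (SE 0.13), with limma adjusted p of 0.750 and 0.673.

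Cdkn1a encodes p21, an inhibitor of cyclin-dependent kinases that also responds to p53. Its brighter probe measured 0.38, 0.38 and 0.79 on the wild type arrays and 0.40, 0.72 and 0.77 on the knockout arrays. Each group held both low and high arrays. The log2 fold changes of its probes were 0.11 (SE 0.16) and 0.096 (SE 0.15), and with slide as a block −0.12 and −0.13.

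Pdk4 encodes a kinase that shuts down pyruvate dehydrogenase and so spares glucose during fasting. Probe A measured 0.82, 1.18 and 1.27 in the wild type samples and 1.04, 1.33 and 1.19 in the knockout. Wild type 1 was the lowest array and the groups overlapped. The difference was 0.10 (SE 0.15), beside 0.052 (SE 0.14) at probe B, which shares 36 bases with it, with limma adjusted p of 0.729 and 0.855.

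**Figure D2:**
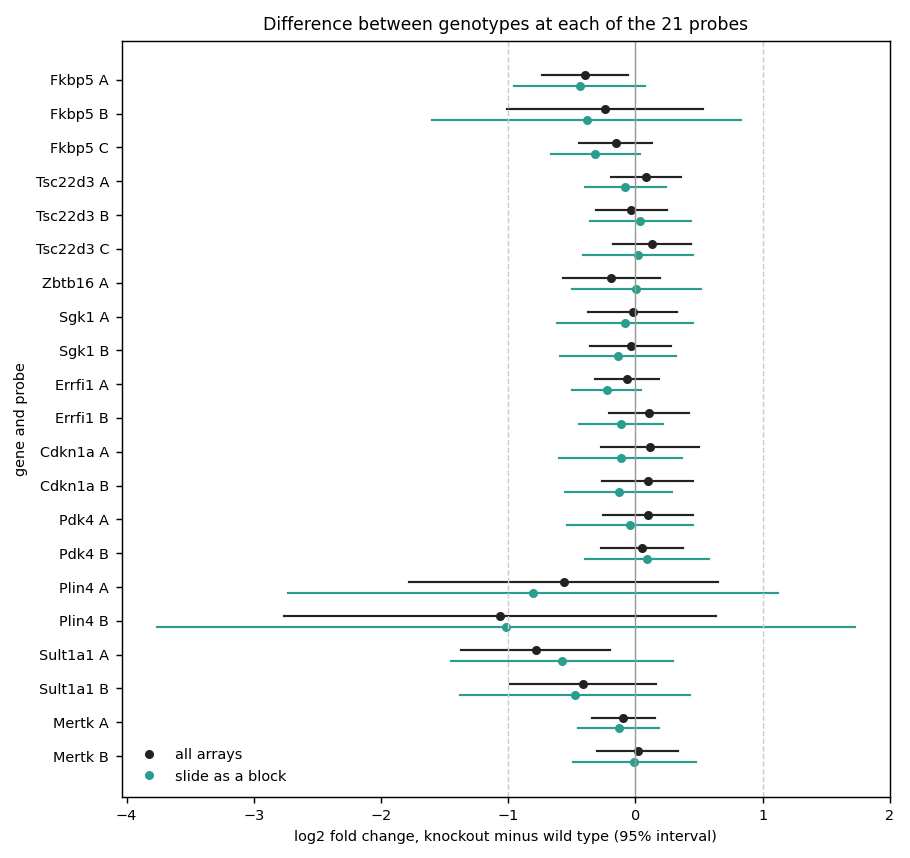
Log2 fold change, knockout minus wild type (horizontal axis, log2), at each of the 21 probes, with 95% intervals from limma over all arrays (black) and with slide as a block (green); dashed lines mark 2-fold. Over all arrays, the interval leaves out 0 only at Fkbp5 probe A and Sult1a1 probe A, and the widest are those of the 2 Plin4 probes.

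Plin4, which encodes a coat protein of lipid droplets, varied more between wild type samples than any other gene of the group. Probe A measured −1.36, 0.70 and −0.0045 in wild types 1, 2 and 3, and −1.03, −0.93 and −0.40 in the knockout. Probe B measured −2.21, 0.70 and −0.011 on the wild type arrays and −1.53, −1.92 and −1.27 on the knockout arrays. At both probes wild type 1 was the lowest of the 6 arrays and wild type 2 the highest, with the knockout between them.

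The wild type SD of Plin4 was 1.05 at probe A and 1.52 at probe B. Only 0.925% and 0.455% of all tested probes had a larger one, while the knockout SDs of 0.33 and 0.32 were exceeded at 16.5% and 17.4%. The log2 fold changes were −0.56 (SE 0.51, limma adjusted p = 0.567) and −1.07 (SE 0.71, limma adjusted p = 0.456). Without wild type 1 they were −1.14 and −1.92, and without wild type 2 −0.10 and −0.46. The interval at probe B ran from −2.76 to 0.63, which holds both a large decrease and a small increase. The probes overlap by 19 bases of the transcript, shown in capitals, and are therefore not fully separate readings. The stretches are the last 30 bases of probe A, which lies at chr17:56240055-56240114 (mm9), and the first 30 of probe B:
Plin4 probe A: caggtctggctCCCTATACTGCTCATGGTA
Plin4 probe B: CCCTATACTGCTCATGGTAgccagcaccta

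Sult1a1 encodes a sulfotransferase that attaches sulfate to phenols, among them drugs and catecholamines. Probe A measured 2.08, 2.82 and 2.15 in the wild type samples and 1.77, 1.22 and 1.71 in the knockout. Every knockout array lay below every wild type array, wild type 2 was the highest and knockout 2 the lowest. The log2 fold change was −0.78 (SE 0.24, 95% interval −1.37 to −0.20), or 1.72-fold lower, with a limma adjusted p of 0.307. Probe B measured 1.66, 2.39 and 1.76 on the wild type arrays and 1.46, 1.26 and 1.85 on the knockout arrays. Here knockout 3 lay above wild types 1 and 3, and the log2 fold change was −0.41 (SE 0.24, limma adjusted p = 0.413). Without wild type 2 it was −0.18, and that of probe A −0.55. With slide as a block, the 2 probes gave −0.58 and −0.48, both short of the threshold. The lowest adjusted p that any member probe reached under the alternatives tried was 0.0963, at Sult1a1 probe A without knockout 1, where the log2 fold change was −0.89; over all alternatives this probe's adjusted p in limma ran up to 0.942.

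Mertk encodes a receptor kinase with which microglia, astrocytes and macrophages take up dying cells and synapses. Its probes A and B overlap by 57 of 60 bases, and they are printed here, in their first 30 bases with the shared part in capitals, because 1 spot decides what probe A shows. Probe A lies at chr2:128627867-128627926 (mm9).
Mertk probe A: agcACCAGGTGAAAGCTGTCAAGTCAGGTT
Mertk probe B: ACCAGGTGAAAGCTGTCAAGTCAGGTTTGC
The spot of probe A on wild type 1 carried the software's outlier flag and was treated as missing, so that the fit of this probe used 5 arrays. Probe A measured 1.59 and 1.61 in wild types 2 and 3, and 1.47, 1.48 and 1.57 in the knockout, and the difference was −0.094 (SE 0.099, limma adjusted p = 0.633). Probe B measured 1.23, 1.66 and 1.61 in the wild type samples and 1.49, 1.49 and 1.58 in the knockout, and its log2 fold change was 0.019 (SE 0.13, limma adjusted p = 0.950). Apart from the lower wild type 1 value, the arrays of both probes lay close together.

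The unnormalised processed signal of the flagged spot was 137, against 691 to 848 for the same probe on the other 5 arrays. The signal of probe B on wild type 1 was 656, against 696 to 885 elsewhere. With the flagged spot kept, probe A gave a log2 fold change of 0.78, and the authors' deposited value table, in which that spot was not left out, also gave 0.78. Neither value passed the threshold.

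Taking for each gene its brightest probe, the wild type 2 array was the highest of the 6 at 5 of the 10 genes, against 12.5% of all genes. Its median deviation from the gene's mean over the arrays was 0.15 across the members. The knockout 1 array was the highest at 0 of the 10, against 6.11% of all genes, and the lowest at 2, against 25.1%. It lay below the mean at 9, for which no share over all genes was taken, with a median deviation of −0.15. The genes in which wild type 2 was highest were Fkbp5, Zbtb16, Sgk1, Plin4 and Sult1a1, while at Tsc22d3, Errfi1, Cdkn1a, Pdk4 and Mertk (on 5 arrays) another array was highest. At Mertk probe B, measured on all 6 arrays, wild type 2 was the highest, at 1.66. Wild type 2 also had the highest sums of endothelial (70.9) and microglial (114) markers of the 6 arrays. Within its genotype it had the highest sum of red cell genes (811), below the knockout arrays (839 to 991). Its sum of immediate early genes, which mark recent neuronal activity, was 163, the lowest of the 6 arrays. The part of these in the members' values was not tested.

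Circular RNAs, loops closed by back-splicing, gave another reading of 4 of these genes. Their listed positions were placed on gene positions of GRCm38, not on mm9 as printed for the mRNA probes. Of all circRNA probes, 97.3% then lay inside a coding gene, against 35.9% after a shift of 1 Mb. The array held 30 circRNA probes inside Fkbp5, Zbtb16, Sgk1 and Mertk, of which 29 were tested. None passed the threshold (0.00289% of 34552 circRNA probes did), 7 had an unadjusted limma p under 0.05, against 14.8% of circRNA probes, and the genotypes did not overlap at 12, against 23.3%. Several of these probes share bases with one another, so the counts are not of separate readings. The median log2 fold change was −0.23 over the 29 and 0.082 over all circRNA probes, and that of the 29 was −0.13 with slide as a block and −0.039 with normexp background correction. Without knockout 1, 4 of the 29 passed, in a fit that called 13558 probes of all kinds, beside 105922 tested over all arrays. In that fit slide and genotype coincide and cannot be told apart.

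Fkbp5 held 11 of them, and 9 had log2 fold changes below 0, with a median of −0.38 and a range from −0.90 to 0.31. Every knockout array lay below every wild type array at 5 of the 11, against 6.81% of all circRNA probes, and at 0 was it the reverse. That comparison counts overlapping probes as if they were separate. Among the 5, the circRNAs from 28415869, 28400960 and 28400955 have the same 51 bases in their probes. That from 28437992 to 28441053 shares 36 to 39 bases with each of them. That from 28428352 to 28438136 was dim, at −4.75, −5.11 and −4.92 on the knockout arrays. It gave −0.67, and −0.039 with normexp background correction. The median of the 11 was −0.47 with slide as a block, again with 9 of 11 below 0. The circRNA of the lowest value, listed at 28437992 to 28441053 on chromosome 17 (no source used here names the build of the circRNA positions), measured −2.83, −2.57 and −2.99 on the wild type arrays and −3.29, −3.99 and −3.82 on the knockout arrays. The genotypes did not overlap there, and the log2 fold change was −0.90 (SE 0.21, limma adjusted p = 0.307). It was −0.49 with slide as a block and −0.25 with normexp background correction, an alternative treatment of the local background, under which the median of the 11 was −0.18 with 8 below 0. Without wild type 2 that median was −0.25.

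These circRNA probes are not separate readings. Of 6 circRNAs that end at the same position, 28441053, 5 have probes with the same last 51 of 60 bases, and only the first 9 differ. Their first 30 bases are printed, from the files, to show how little of each probe is its own, with the shared part in capitals and each named by its start:
circRNA from 28415869: tggaccacgGTCTTCTACTTACAAAGGACA
circRNA from 28410510: tacttcaagGTCTTCTACTTACAAAGGACA
circRNA from 28400960: gtgtttagtGTCTTCTACTTACAAAGGACA
circRNA from 28428352: cggtaaaagGTCTTCTACTTACAAAGGACA
circRNA from 28400955: tagtgtaagGTCTTCTACTTACAAAGGACA
The log2 fold changes of these 5 were −0.48, −0.38, −0.53, −0.35 and −0.27 in the order printed. All lay below 0, but a signal from a shared exon in the linear Fkbp5 transcript and one from the loops cannot be told apart on probes of this kind.

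**Figure D3:**
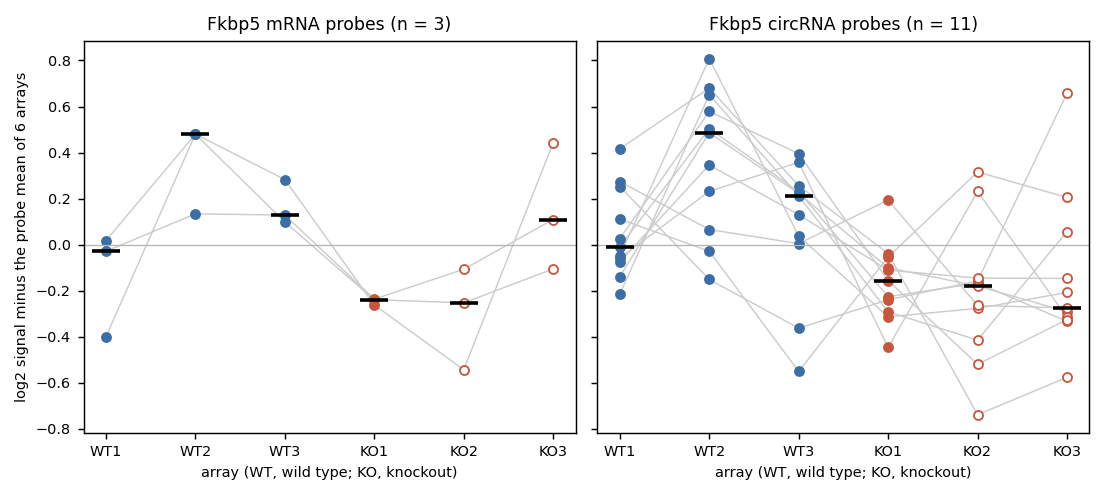
Deviation of the normalised log2 signal from the probe's mean over the 6 arrays (vertical axis, log2) for the 3 mRNA probes (left) and the 11 circRNA probes (right) of Fkbp5 on each array, wild type in blue, knockout in red, open symbols for slide 2, black bars for the median over probes and grey lines joining each probe. Knockout 1 lies below 0 at all 3 mRNA probes and wild type 2 above 0 at all 3, and 9 of the 11 circRNA probes have a lower mean in the knockout.

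Between them, the other 3 genes showed no common direction. The 3 Zbtb16 circRNAs had log2 fold changes between −0.24 and −0.040, all below 0 also with slide as a block. The 2 of Sgk1 were −0.79 and 0.15. Of the 13 tested at Mertk, 6 were below 0 and 7 above, from −1.35 to 0.64, with adjusted limma p of 0.307 to 0.960. The highest of these was 0.55 with slide as a block. The genotypes did not overlap at 2 Zbtb16 circRNAs, both lower in the knockout, and at both of Sgk1. At Mertk they did not overlap at 1 lower and 2 higher, where 23.3% of all circRNA probes did not overlap. With slide as a block, the lower Sgk1 value was −0.24 in place of −0.79 and the lowest at Mertk −0.071 in place of −1.35. That Mertk probe was dim, at −5.79 and −5.94 on knockouts 2 and 3, and not well above background on all 6 arrays. With normexp background correction it gave −0.12.

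The hormone's receptors and their partners were read from a list of 50 further genes of the pathway, with the brightest probe of each gene. All 50 had a tested probe, and 0 passed the threshold, against 0.0171% of all 17560 genes. At an unadjusted limma p under 0.05, 2 were higher and 4 lower, a share like the 12.4% of all genes in either direction (9.46% lower). The median log2 fold change was 0.041, with 29 genes above 0 and 21 below, beside −0.0051 over all genes and −0.080 over the 10 members, of which 3 were above 0 and 7 below.

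Nr3c1, the glucocorticoid receptor, had a normalised log2 signal of 3.09 ± 0.15 (SD, n = 3) without and 3.35 ± 0.17 (SD, n = 3) with the deletion. The difference was 0.26 (SE 0.13, limma adjusted p = 0.368), or 0.060 with slide as a block. Nr3c2, the mineralocorticoid receptor, which binds corticosterone with higher affinity, gave −0.042 (SE 0.089). Neither passed the test, and knockout 1 matched wild type 1 at Nr3c1, at 3.15 on both arrays.

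The 8 genes of the receptor's chaperone complex and nuclear import all had log2 fold changes above 0, with a median of 0.15, from 0.033 at Hspa8, the constitutive Hsp70 that loads the receptor, to 0.26 (SE 0.12) at Fkbp4, the co-chaperone that replaces Fkbp5 when hormone binds. None passed the test, and with slide as a block 5 of the 8 were above 0, with a median of 0.036. Among 8 co-regulators, the coactivator Ncoa3 was lowest at −0.15 (SE 0.093). None of the co-regulators passed the test.

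Hsd11b1 encodes the reductase that regenerates active corticosterone from its inert keto form inside cells, and it had the highest log2 fold change of the list. It measured 2.49, 2.06 and 2.26 in the wild type samples and 2.75, 3.098 and 2.96 in the knockout. All 3 knockout arrays lay above all 3 wild type arrays. The log2 fold change was 0.67 (SE 0.15, 95% interval 0.31 to 1.02) with a limma adjusted p of 0.307, and a second probe of the gene gave 0.85 (SE 0.15). With slide as a block it was 0.48 at the first probe. Only without knockout 1 did it pass, at an adjusted limma p of 0.031, in a fit that called 13558 probes in place of 10. In that fit slide and genotype coincide and cannot be told apart. Hsd11b2, the enzyme of the opposite reaction, was the lowest of the 4 steroid enzymes at −0.21 (SE 0.13), or −0.082 with slide as a block.

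Of 28 further target genes, 12 were above 0 and 16 below (6 above and 22 below with slide as a block). Gadd45g, a growth arrest gene, was highest at 0.30 (SE 0.11). Lcn2, an acute-phase protein that binds iron carriers, was lowest at −0.81 (SE 0.46), with −1.92, −0.47 and −0.27 in wild type, against −1.27, −2.12 and −1.71 in the knockout. Its wild type SD was 0.90, and wild type 1 lay among the knockout arrays. The value was −1.33 without wild type 1 and −0.38 with slide as a block.

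The 4 genes called lower at an unadjusted limma p, named after their values were seen, were Cebpd, Hif3a, Map3k6 and Pnpla2. Cebpd, a transcription factor of the acute-phase response, measured 2.38, 2.47 and 2.31 on the wild type arrays and 1.77, 1.97 and 2.01 on the knockout arrays. The groups did not overlap, and the log2 fold change was −0.47 (SE 0.10, limma adjusted p = 0.307), or −0.61 with slide as a block. Pnpla2, the first lipase of stored fat, gave −0.39 (SE 0.13) and, with slide as a block, −0.14. A second Pnpla2 probe ran the other way, at 0.18 (SE 0.087), with all 3 knockout arrays above all 3 wild type arrays. Hif3a, a subunit of the hypoxia-inducible factors, and Map3k6, a stress-responsive kinase, gave −0.35 (SE 0.099) and −0.61 (SE 0.20), the latter −0.39 with slide as a block. Without knockout 1, where slide and genotype coincide, Hsd11b1, Cebpd and Pnpla2 passed the threshold, at adjusted limma p of 0.031, 0.045 and 0.023. Under the other alternatives their adjusted limma p lay between 0.212 and 0.956.

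**Figure D4:**
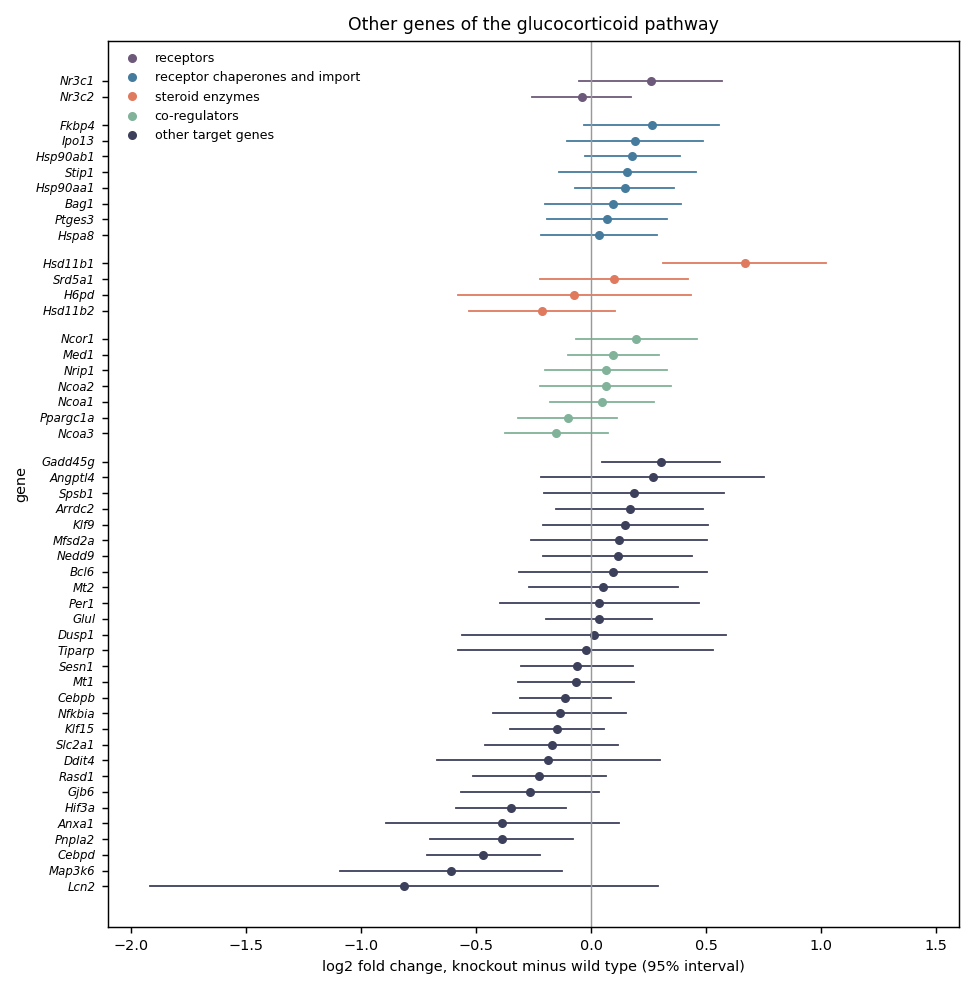
Log2 fold change, knockout minus wild type (horizontal axis, log2), with limma's 95% interval for the further pathway genes, 1 probe per gene, coloured by role, with 1 of the 50 not drawn. The 8 chaperone and import genes all lie above 0, Hsd11b1 lies farthest to the right at 0.67 and Lcn2 farthest to the left at −0.81, and none passed the threshold after adjustment.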

How the data were processed

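Single-colour Agilent arrays (Cy3) measured the 6 samples, 1 array each. The deposited scanner output holds intensity values. Per the file headers, they come from version 12.0.3.1 of Agilent's Feature Extraction, while the submitters' processing notes name 10.7. The authors' deposited value table is on a log2 scale, close to quantile-normalised log2 signals, and served as an alternative.

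From the processed signal, log2 minus log2 of the array's 75th percentile was taken, leaving out 4974 control spots and treating outlier-flagged spots as missing (186 on wild type 1, 13 to 36 elsewhere). Probes well above background on all 3 arrays of at least 1 genotype were tested with limma 3.58.1 in R 4.3.3 (lmFit, eBayes, no covariate), two-sided, with Benjamini-Hochberg adjustment over 105922 probes and a threshold of 0.05. The SE given is that of limma. The procedure was tested on simulated data, with changes larger than at any member probe and no slide effect. How it performs at smaller changes or with such an effect was not tested. For counts by gene, the tested coding probe of the highest mean stood for the gene. The number of arrays limits the precision.

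The 10 members and all lists were chosen with earlier results of these data known. Named were all members, both receptors, the highest and lowest gene of each role, any gene past the threshold, and Nfe2l2. The value of 1 gene that this rule names is not reported here. Same-numbered samples did not deviate together (r of −0.013, −0.050 and 0.038), so replicate numbers were not treated as pairs. Alternatives were normexp background correction (offset 50), quantile normalization, the authors' table, other filters, slide as a block, slide 1 alone, a replicate block, each array left out, and, chosen after seeing the data, outlier-flagged spots kept.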

Additional observations from a re-analysis of the deposited data

How the results depend on the processing

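No member probe passed the threshold under any of the 15 alternatives tried, and 283 of their 314 alternative log2 fold changes kept their sign. With slide as a block and on slide 1 alone, both resting on knockout 1, the sign turned at Tsc22d3 A (−0.078) and B (0.039), Zbtb16 A (0.0071), Errfi1 B (−0.11), Cdkn1a A (−0.12) and B (−0.13), Pdk4 A (−0.043) and Mertk B (−0.0081). Mertk A turned to 0.78 in the authors' table and with the flagged spot kept. Leaving out single arrays gave ranges across 0 at Tsc22d3 B (−0.096 to 0.068), Sgk1 A (−0.17 to 0.094) and B (−0.14 to 0.067), Errfi1 A (−0.11 to 0.013), Cdkn1a B (−0.023 to 0.21), Pdk4 A (−0.033 to 0.19) and B (−0.059 to 0.17) and Mertk B (−0.11 to 0.097). Replacing the gene's brightest probe by its probe B turned Tsc22d3 to −0.031, Errfi1 to 0.11 and Mertk to 0.019. The causes were not tested.

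Over all tested probes, 10 passed (3 higher, 7 lower). The count was 16 with normexp, 4 with probes well above background on all 6 arrays and 4 on slide 1 alone. With the replicate number as a block it was 2, and the block changed no call among the members or the 50 pathway genes. Leaving out single arrays gave 5 to 13558, the highest without knockout 1 and 50 without wild type 1. For the 50 pathway genes the count without single arrays was 0 to 3, the 3 without knockout 1. The arrays on slide 2 hold knockout samples only, so slide and genotype can be separated only through knockout 1. With 3 arrays a group, differences smaller than the intervals given could not be detected.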
